A study of Mus musculus with 6 samples.

Results

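In order to follow the receptors and peptides through which nerves and hormones reach the injured heart, 10 genes of adrenergic, muscarinic, angiotensin, endothelin and natriuretic peptide signaling were read in infarct tissue of 3 mice given LGK-974 and 3 mice given the DMSO vehicle. The genes are Adrb1, Adra1a, Adra1b, Chrm2, Agtr1a, Ace, Edn1, Ednra, Ednrb and Npr3. They were chosen by name and with earlier results of these data known. They are 10 of the 35968 genes to which the transcripts of the files could be joined. All mice were female C57BL6 animals of 12 weeks that underwent occlusion of the left anterior descending artery and reperfusion, and the infarct area was taken 48 h after ischemia/reperfusion (I/R). LGK-974 blocks Porcupine, the enzyme that attaches to Wnt proteins the lipid they need for secretion. The treated mice received it by gavage in DMSO and citrate buffer, and the control mice received the same vehicle without it.

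In the heart, noradrenaline from sympathetic nerves acts through beta-adrenergic receptors, which raise cyclic AMP and the force and rate of contraction, and through alpha1-adrenergic receptors, which act by the G protein Gq and phospholipase C. Acetylcholine from the vagus nerve opposes this through the muscarinic M2 receptor and the G protein Gi. Angiotensin II and endothelin-1 are peptides made by the proteases ACE and ECE1, and both are known for constricting vessels and for acting on cardiomyocytes and fibroblasts after injury. The natriuretic peptides act in the opposite direction on vessels, and Npr3 encodes the receptor that removes them.

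Levels are given as CPM, the estimated count of a gene per 1000000 counts of its library after scaling by edgeR's TMM factor, and means are given ± SD over the n = 3 mice of a group. The libraries held 41579787 to 80398211 estimated counts, of which 28.1 to 53.6% came from mitochondrially encoded genes, and the TMM factors ranged from 0.816 to 1.40. LGK-974 replicate 3 had the highest TMM factor, 1.40, and the lowest mitochondrial share, 28.1%. DMSO replicate 1 stood apart from the others in background. Olfactory, vomeronasal and bitter taste receptor genes were taken as a measure of background. Their median count per kb was 29.8 in DMSO replicate 1, 9.37 in LGK-974 replicate 1, 10.1 in DMSO replicate 2 and 0.813 to 2.69 in the other 3 libraries. For each of the 10 genes the value without DMSO replicate 1 is therefore given as well. In this mixed tissue, fewer cells of a type and less RNA per cell cannot be told apart.

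The test was the quasi-likelihood F test of edgeR, adjusted over all 20076 genes tested by the Benjamini-Hochberg method. It gave an adjusted p-value under 0.05 to 0 of the 10 genes and to 0.0% of all genes. An unadjusted p-value under 0.05 was reached by 5 of the 10 and by 13.4% of all genes. These were Adra1a, Adra1b, Agtr1a and Ednra on the lower side and Ednrb on the higher side, against backgrounds of 7.18 and 6.26% of all genes. The median log2 fold change of the 10 genes was −0.49, beside −0.13 over all genes tested (−0.62 and −0.02 without DMSO replicate 1), and 7 of the 10 were below 0, as were 59.5% of all genes. The groups were fully apart in 4 genes and in 18.0% of all genes. Adra1a, Agtr1a and Ednra were lower in every treated mouse than in any control mouse, as were 7.26% of all genes, and Ednrb was higher, as were 10.7%. In CPM by library totals and in deposited TPM, 3 of the 10 were apart, Ednra no longer among them, with 8.55 and 6.15% of all genes. DESeq2 called 2 of the 10, Agtr1a and Adra1a, at an adjusted p-value under 0.05, as it did 2.31% of the genes it gave an adjusted value, and limma-voom with quality weights called Agtr1a and 0.224% of all genes. The number at an unadjusted p-value under 0.05 rested on single mice. It was 7 without DMSO replicate 1 (11.0% of all genes), 3 without DMSO replicate 2 (13.4%), 3 without DMSO replicate 3 (23.2%) and 2 without LGK-974 replicate 3 (4.17%). An adjusted p-value under 0.05 was reached by Agtr1a without the filter on low counts (3.54% of all genes), and by Agtr1a, Adra1a and Adra1b with DESeq2 without DMSO replicate 1 (2.57%). Scaling by library totals alone left 1 gene at an unadjusted p-value under 0.05, Agtr1a (11.8% of all genes), and moved the median of all genes from −0.13 to 0.08.

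**Figure D1:**
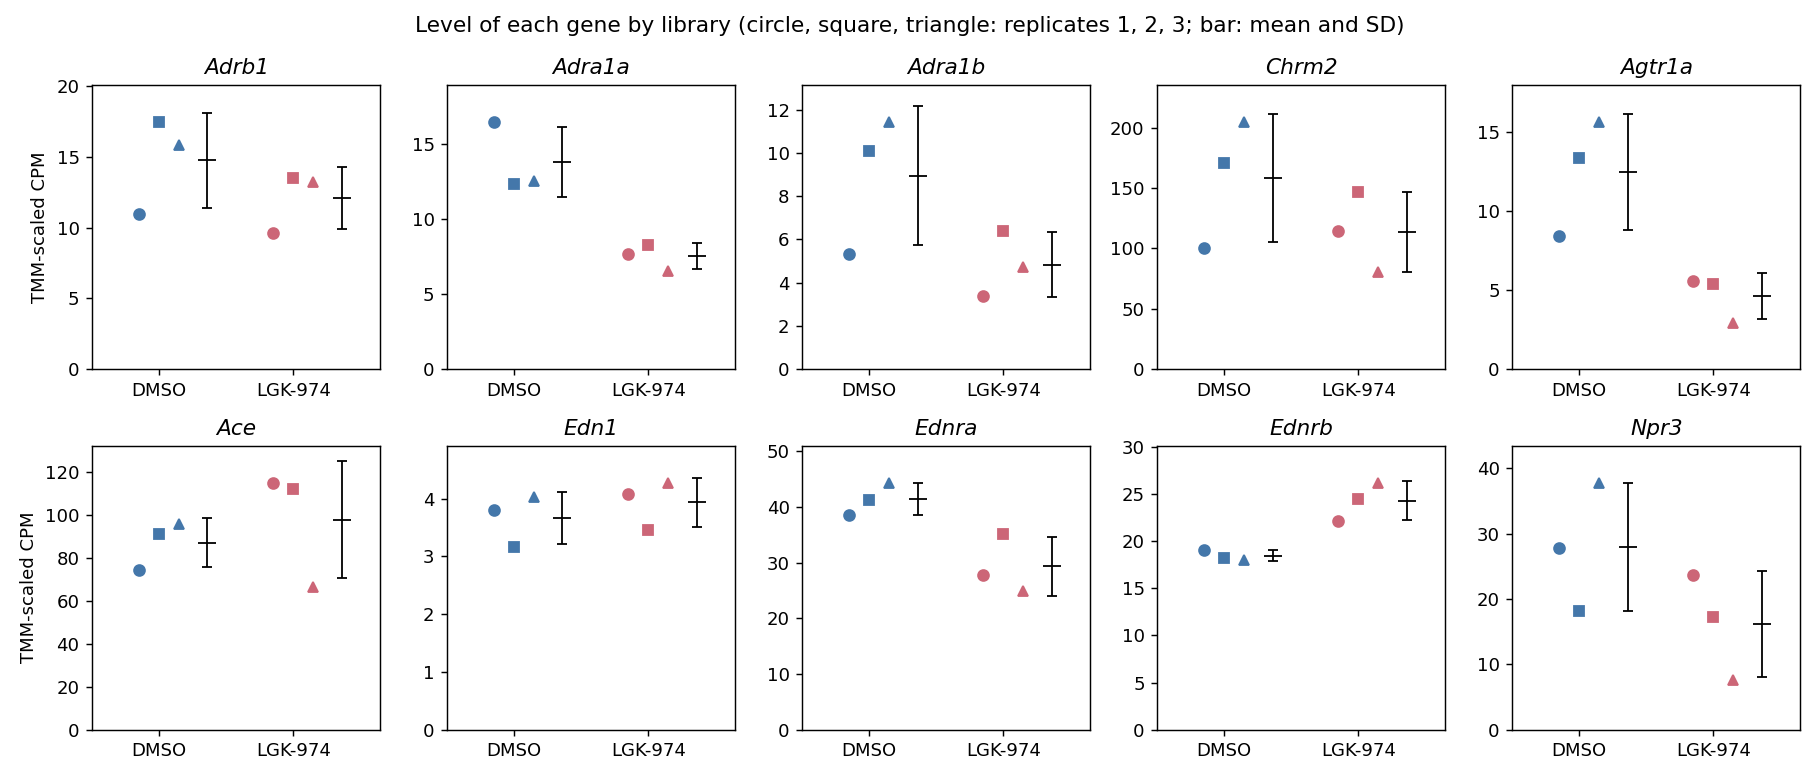
Level of each of the 10 genes in TMM-scaled CPM (vertical axes from 0, a scale for each gene) in the 3 DMSO and 3 LGK-974 libraries, with a symbol for each replicate number and a bar for the mean and SD. The groups are apart in Adra1a, Agtr1a, Ednra and Ednrb and overlap in the other 6 genes.

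Upstream sequence is shown for the 2 endothelin receptors, whose log2 fold changes lay on opposite sides of 0, and for the other genes of the set in which a searched motif was found. The windows hold up to 250 bases before the RefSeq start of the gene on GRCm38.p6, less any base in an annotated exon, and are written in the direction of transcription. RefSeq gave 10 windows for 8 of the 10 genes, without Adra1a and Agtr1a, and motifs were searched in all 250 bases of each, exonic bases included. Searched motifs, on both strands, were CTTTGAT for TCF/LEF, the factors at the end of the canonical Wnt pathway, TGANTCA for AP-1, TGACGTCA for the cyclic AMP response element, AGATAA for GATA factors and TATAAA for the TATA box. Capitals mark a match.

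Ednra, chr8:77724465-77724702 on the minus strand: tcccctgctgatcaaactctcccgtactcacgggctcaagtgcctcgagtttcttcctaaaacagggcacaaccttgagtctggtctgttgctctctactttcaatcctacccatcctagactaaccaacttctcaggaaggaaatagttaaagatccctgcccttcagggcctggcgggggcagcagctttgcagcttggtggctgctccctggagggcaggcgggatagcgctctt
Ednrb, chr14:103843702-103843951 on the minus strand: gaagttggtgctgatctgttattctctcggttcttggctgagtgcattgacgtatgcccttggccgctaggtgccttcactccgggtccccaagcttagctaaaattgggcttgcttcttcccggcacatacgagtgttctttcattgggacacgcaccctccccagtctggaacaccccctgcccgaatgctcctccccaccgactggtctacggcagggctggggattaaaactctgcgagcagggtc
Adra1b, chr11:43901238-43901487 on the minus strand: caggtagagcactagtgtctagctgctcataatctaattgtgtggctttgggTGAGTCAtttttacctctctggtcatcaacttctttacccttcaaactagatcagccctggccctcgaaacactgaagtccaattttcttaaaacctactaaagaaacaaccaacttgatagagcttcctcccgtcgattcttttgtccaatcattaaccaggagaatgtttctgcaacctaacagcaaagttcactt
Ace, chr11:105967698-105967944 on the plus strand: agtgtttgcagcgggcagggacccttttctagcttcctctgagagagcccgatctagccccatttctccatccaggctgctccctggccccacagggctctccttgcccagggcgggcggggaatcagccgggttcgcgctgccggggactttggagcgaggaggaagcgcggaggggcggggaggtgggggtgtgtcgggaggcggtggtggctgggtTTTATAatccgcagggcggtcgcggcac

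The capitals in Adra1b mark an AP-1 match 198 bases before the farther upstream of its 2 RefSeq starts, a motif present in 6.75% of 32851 RefSeq windows of this length, and those in Ace mark the reverse complement of the TATA motif 31 bases before the start (12.4% of windows). Adra1b and Ace have 2 windows each, and the windows not printed, at chr11:43836490-43836739 and chr11:105974939-105975188, held no match. The first of these lies upstream of the start of Adra1b-202 and Adra1b-204. The Wnt motif CTTTGAT was in 3.21% of all windows and in 0 of these 10. A match or its absence describes these letters only.

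Adrb1, Adra1a and Adra1b encode the adrenergic receptors of this set, and all 3 had a lower mean with LGK-974. Adra1a, an alpha1-adrenergic receptor gene on chromosome 14 from 66635251 to 66771168 (GRCm38), was at 7.68, 8.27 and 6.56 CPM in LGK-974 replicates 1, 2 and 3 and at 16.5, 12.3 and 12.6 CPM in DMSO replicates 1, 2 and 3. Every treated mouse lay below every control mouse, also in CPM by library totals and in deposited TPM. It averaged 7.50 ± 0.867 CPM in treated and 13.8 ± 2.33 CPM in control mice, with a log2 fold change of −0.88 (SE 0.195, edgeR adjusted p = 0.367). DESeq2 gave an adjusted p-value of 0.0271, and over all alternatives the adjusted p-values ranged from 0.0271 to 0.772. Without DMSO replicate 1, in which Adra1a was highest, the log2 fold change was −0.71, and with each mouse left out in turn it lay between −0.97 and −0.71.

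Adra1b, another alpha1-adrenergic receptor gene, lies on chromosome 11 from 43774606 to 43901210. It was at 3.37, 6.38 and 4.75 CPM in LGK-974 replicates 1 to 3 and at 5.33, 10.1 and 11.4 CPM in DMSO replicates 1 to 3. The groups overlapped through DMSO replicate 1, which lay below LGK-974 replicate 2. Its log2 fold change was −0.89 (SE 0.353, edgeR adjusted p = 0.367) and −1.15 without DMSO replicate 1, but −0.59 without DMSO replicate 3. In DMSO replicate 1, Adra1b was 2.54 times the median level per kb of the receptor families taken as background, and at least 10.9 times in the others. DESeq2 without DMSO replicate 1 gave an adjusted p-value of 0.0173, within a range of 0.0173 to 0.772 over the alternatives.

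Adrb1, the gene of the beta1-adrenergic receptor that noradrenaline uses to drive contraction, lies on chromosome 19 from 56722199 to 56733113. Its levels were 9.59, 13.5 and 13.2 CPM with LGK-974 and 10.96, 17.5 and 15.8 CPM with DMSO. The groups overlapped, with replicate 1 lowest in both. Its log2 fold change of −0.29 (SE 0.23, edgeR adjusted p = 0.534) became −0.45 without DMSO replicate 1 and −0.14 without DMSO replicate 3. The ratio of Adra1a to Adrb1 counts, which needs no scaling between libraries, was 0.637 ± 0.153 with LGK-974 and 1.001 ± 0.437 with DMSO and overlapped (exact two-sided permutation test, p = 0.3).

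Chrm2 encodes the muscarinic M2 receptor that slows the heart, and lies on chromosome 6 from 36388084 to 36528414. It had the highest TPM of the 10 genes in each of the 6 libraries. It was at 115, 147 and 80.3 CPM in LGK-974 replicates 1 to 3 and at 100.3, 170 and 205 CPM in DMSO replicates 1 to 3. The highest values were in DMSO replicates 3 and 2, but DMSO replicate 1 lay within the treated range. On the log2 scale the fold change was −0.48 (SE 0.317, edgeR adjusted p = 0.469), −0.70 without DMSO replicate 1 and −0.15 without DMSO replicate 3.

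Genes that mark cardiomyocytes, the cells best known for Adrb1, Adra1b and Chrm2, mostly lay lower as well. Of 12 cardiomyocyte markers, 10 had a log2 fold change below 0 (median −0.42), as did 59.5% of all genes. The 1 marker with an unadjusted p-value under 0.05 in edgeR, Actc1, was higher with LGK-974, as were 6.26% of all genes. The summed level of the 12 was 20261 to 29114 CPM with LGK-974 and 25220 to 34387 CPM with DMSO. None of the 12 was at 0 in any library. Per 1000 counts on these markers there were 0.509 ± 0.07 Adrb1 counts with LGK-974 and 0.494 ± 0.082 with DMSO (exact two-sided permutation test, p = 0.5), and 0.199 ± 0.0287 and 0.295 ± 0.0725 Adra1b counts (exact permutation test, p = 0.3). There were 0.319 ± 0.0525 Adra1a counts with LGK-974 and 0.478 ± 0.154 with DMSO, with overlap (exact two-sided permutation test, p = 0.2). The corresponding Chrm2 counts were 4.76 ± 1.06 and 5.22 ± 1.08, also with overlap (exact permutation test, p = 0.5). The part of the cardiomyocyte share in these levels was not tested.

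Agtr1a had the largest fold change of the 10 genes, and its level was lower in every LGK-974 mouse. It encodes the type 1 angiotensin II receptor, which carries the constrictor and profibrotic actions of angiotensin II, and lies on chromosome 13 from 30336441 to 30382867. Its levels were 5.55, 5.39 and 2.91 CPM in LGK-974 replicates 1, 2 and 3 and 8.42, 13.4 and 15.6 CPM in DMSO replicates 1, 2 and 3. LGK-974 replicate 3 was lowest and DMSO replicate 3 highest, and the groups were apart in CPM by library totals and in TPM as well. The means were 4.62 ± 1.48 and 12.5 ± 3.70 CPM, so the DMSO level was 2.70 times the LGK-974 level by the fit. Its log2 fold change was −1.43 (SE 0.33, edgeR adjusted p = 0.367) and DESeq2 gave an adjusted p-value of 0.017.

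The value of Agtr1a held its sign in each alternative, between −1.65 and −1.13, and its adjusted p-values ranged from 2.50e-04 for DESeq2 without DMSO replicate 1 to 0.772. Without DMSO replicate 1, which was the lowest control, edgeR gave −1.63. Of all genes tested, 14.7% had a log2 fold change below that of Agtr1a. Agtr1b, a near-identical paralog with which reads may be shared, had 0.0707 to 0.411 CPM with LGK-974 and 0.0246 to 1.68 CPM with DMSO.

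Ace, on chromosome 11 from 105967945 to 105989964, encodes the enzyme of endothelial cells that makes angiotensin II and breaks down bradykinin. It was at 115, 112 and 66.2 CPM in LGK-974 replicates 1 to 3 and at 74.3, 91.2 and 95.7 CPM in DMSO replicates 1 to 3. Both the highest and the lowest values were in treated mice. For Ace the log2 fold change was 0.17 (SE 0.241, edgeR adjusted p = 0.737) and 0.08 without DMSO replicate 1. It ranged from 0.02 without LGK-974 replicate 1 to 0.45 without LGK-974 replicate 3, and was 0.35 without DMSO replicate 3. Within each library, there were 4.68 ± 0.245 Agtr1a counts per 100 Ace counts with LGK-974 and 14.1 ± 2.56 with DMSO. The 3 treated values lay between 4.40 and 4.83 and the 3 control values between 11.3 and 16.4. The exact two-sided permutation test gave p = 0.1, the smallest p-value possible with 3 mice against 3, and this ratio was chosen after the levels were seen.

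Ednra and Ednrb, the 2 receptor genes of endothelin, had log2 fold changes on opposite sides of 0. Ednra encodes the receptor of smooth muscle, pericytes, fibroblasts and cardiomyocytes that mediates constriction, and lies on chromosome 8 from 77663031 to 77724464. Its levels were 27.8, 35.2 and 25.0 CPM in LGK-974 replicates 1 to 3 and 38.6, 41.2 and 44.4 CPM in DMSO replicates 1 to 3. All treated mice lay below all control mice on this scale, but the groups overlapped in CPM by library totals, where LGK-974 replicate 3 reached 34.7 and DMSO replicate 1 had 31.8. The log2 fold change was −0.50 (SE 0.171, edgeR adjusted p = 0.367), −0.53 without DMSO replicate 1, and −0.33 by library totals, without LGK-974 replicate 3 or without DMSO replicate 3.

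Ednrb encodes the receptor that endothelial cells use to release nitric oxide and to clear endothelin-1, and lies on chromosome 14 from 103814625 to 103844402. Its levels were 22.1, 24.5 and 26.2 CPM in LGK-974 replicates 1 to 3 and 19.1, 18.2 and 18.0 CPM in DMSO replicates 1 to 3. The groups did not overlap on any of the 3 scales, and the 3 control mice lay within a narrow range. The means were 24.3 ± 2.05 and 18.4 ± 0.557 CPM. The log2 fold change was 0.40 (SE 0.138, edgeR adjusted p = 0.367) and 0.44 without DMSO replicate 1. It was 0.37 to 0.49 with each mouse left out in turn and 0.62 by library totals.

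The ratio of the 2 receptors within a library does not depend on scaling. There were 0.797, 0.695 and 1.05 Ednrb counts per Ednra count in LGK-974 replicates 1 to 3 and 0.494, 0.442 and 0.406 in DMSO replicates 1 to 3. The means were 0.847 ± 0.181 and 0.448 ± 0.0443, a log2 difference of 0.90 without overlap (exact two-sided permutation test, p = 0.1, the smallest possible). The ratio was chosen after the levels were seen. In TMM-scaled CPM, Ednrb was higher and Ednra lower in every treated mouse, so the ratio had to be apart. Its p-value of 0.1 in the exact test (0.283 after adjustment over 17 ratios) therefore adds nothing to the levels of the 2 genes.

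**Figure D2:**
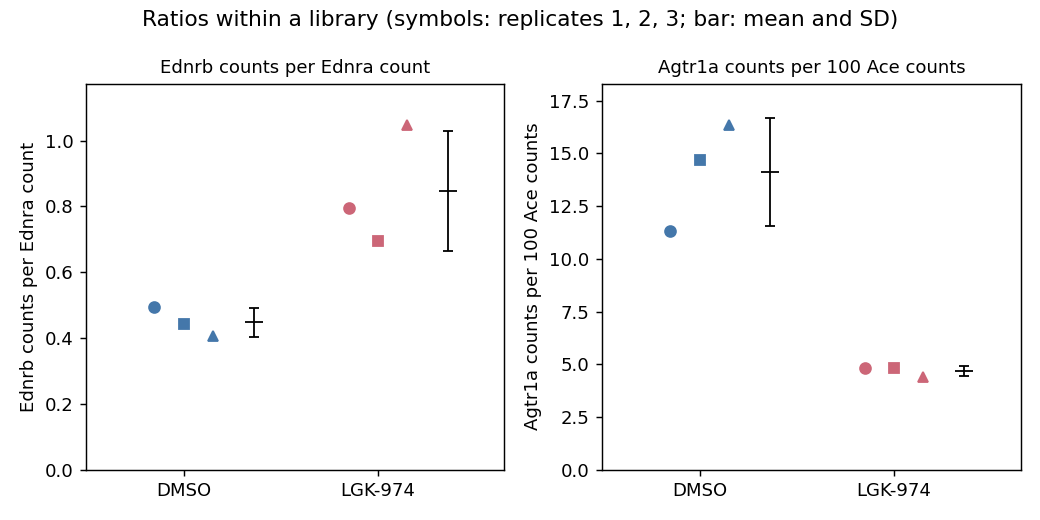
Ednrb counts per Ednra count (left) and Agtr1a counts per 100 Ace counts (right) within each library, both from 0, with a symbol for each replicate number and a bar for the mean and SD. Ednrb per Ednra was 0.695 to 1.05 with LGK-974 and 0.406 to 0.494 with DMSO, and Agtr1a per 100 Ace was 4.40 to 4.83 and 11.3 to 16.4.

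Edn1, the gene of the endothelin-1 precursor, lies on chromosome 13 from 42301476 to 42307990 and had the lowest mean TPM of the 10 genes. It was at 4.08, 3.45 and 4.28 CPM with LGK-974 and at 3.80, 3.17 and 4.03 CPM with DMSO. The ranges of the groups were nearly the same, with a log2 fold change of 0.10 (SE 0.255, edgeR adjusted p = 0.853). It was 0.15 without DMSO replicate 1 and 0.29 without DMSO replicate 3, and its sign turned to −0.0034 without DMSO replicate 2. In DMSO replicate 1 its level per kb was 2.37 times that of the receptor families taken as background, the lowest such value of any of the 10 genes.

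Markers of the cells known for these receptors were read beside them. The 10 endothelial markers summed to 765 to 794 CPM with LGK-974 and 628 to 930 CPM with DMSO (median log2 fold change 0.02), and Ednrb per 1000 counts on them was 31.0 ± 2.20 and 24.5 ± 5.55, with overlap (exact two-sided permutation test, p = 0.2). The 10 markers of pericytes and smooth muscle summed to 747 to 948 CPM with LGK-974 and 686 to 1075 CPM with DMSO (median 0.22). Per 1000 counts on these markers there were 34.1 ± 6.79 Ednra counts with LGK-974 and 50.01 ± 7.80 with DMSO, and 5.49 ± 2.21 and 14.6 ± 2.39 Agtr1a counts. Neither ratio overlapped between the groups (exact permutation test, p = 0.1 for both). Per 1000 fibroblast marker counts there were 1.09 ± 0.53 Agtr1a counts with LGK-974 and 4.86 ± 0.422 with DMSO (exact permutation test, p = 0.1). This ratio had to be apart, since every treated mouse had less Agtr1a and a higher sum of fibroblast markers than any control mouse. Its p-value therefore adds nothing to those levels. Of 17 such ratios computed, 6 reached p = 0.1 in the exact test, which is 0.283 after adjustment over the 17. The 10 fibroblast markers, of which Col1a1, Col1a2, Col3a1 and Postn are matrix genes of activated fibroblasts, were higher with LGK-974, at 3785 to 6090 CPM against 1900 to 2965 CPM with DMSO (median 0.54, 9 of 10 above 0). So were the 12 monocyte and macrophage markers, with 639 to 724 against 334 to 460 CPM (median 0.92, 11 of 12 above 0). Of all genes, 59.5% lay below 0. An unadjusted p-value under 0.05 in edgeR was reached on the higher side by 4 fibroblast and 10 monocyte and macrophage markers, against 6.26% of all genes, and on the lower side by 0. After adjustment edgeR called 0 of them, and DESeq2 called 4 and 8, against 2.31% of the genes it gave an adjusted value. None of these markers was at 0 in any library, and their part in the levels of the receptors was not tested.

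Markers of neutrophils, mast cells, and Schwann cells and neurons had low summed levels, and in each of these lists the highest sum was in DMSO replicate 1. The 8 neutrophil markers, of which 5 passed the filter on low counts, summed to 32.9 to 45.9 CPM with LGK-974 and 40.5 to 80.5 CPM with DMSO. Retnlg, Ltf and Ngp were at 0 in at least 1 library. The 7 mast cell markers, among them Cma1, which encodes a chymase that makes angiotensin II, summed to 6.05 to 9.58 CPM and 7.37 to 12.996 CPM, with Fcer1a at 0 in at least 1 library. The 8 Schwann cell and neuron markers, of interest because Ednrb is also a gene of neural crest cells, summed to 27.6 to 34.9 CPM with LGK-974 and 28.9 to 37.3 CPM with DMSO.

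Npr3 lies on chromosome 15 from 11839896 to 11907287 and encodes the natriuretic peptide clearance receptor, known as a gene of the endocardium. It had the largest SE of the 10 genes, with levels of 23.7, 17.2 and 7.64 CPM in LGK-974 replicates 1 to 3 and 27.8, 18.2 and 37.8 CPM in DMSO replicates 1 to 3. DMSO replicate 2 lay below LGK-974 replicate 1, so the groups overlapped. For Npr3 the log2 fold change was −0.79 (SE 0.417, edgeR adjusted p = 0.394), −0.77 without DMSO replicate 1 and −0.38 without LGK-974 replicate 3 or without DMSO replicate 3.

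**Figure D3:**
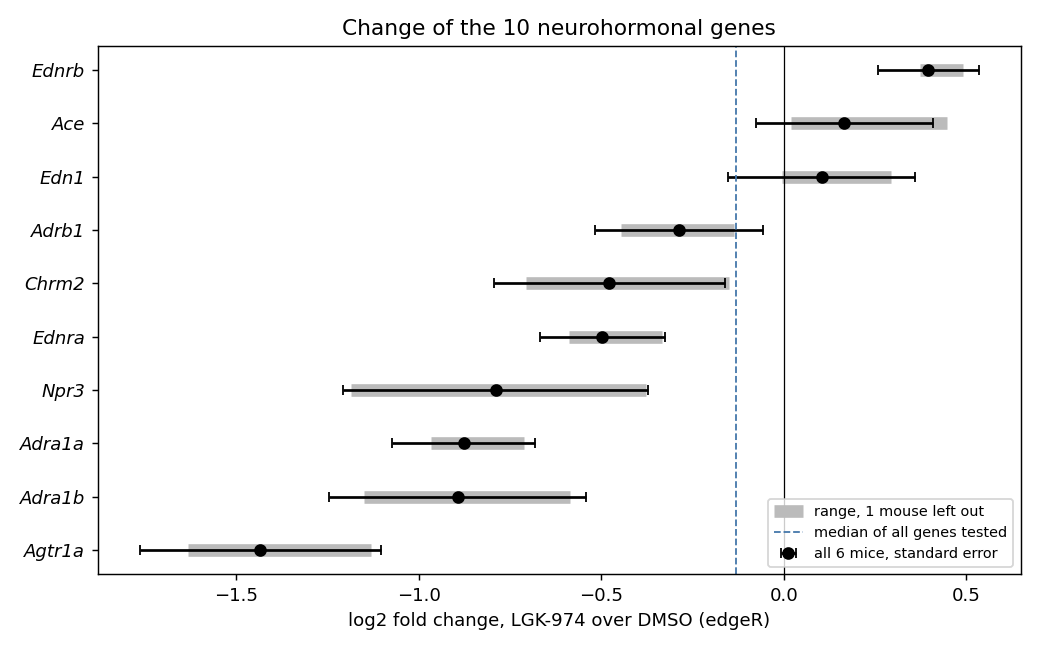
Log2 fold change of LGK-974 over DMSO (edgeR) of the 10 genes, with points for all 6 mice, thin bars for the standard error and grey bars for the range when each mouse is left out in turn. Agtr1a, at −1.43, lies farthest from 0 and Ednrb, at 0.40, highest, and the dashed line marks the median of all genes at −0.13.

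On the length-scaled TPM of the authors, which alone allows a comparison between genes, the mean over the 6 libraries was 31.5 for Chrm2, 20.7 for Ace, 9.83 for Ednra, 7.90 for Adrb1, 7.71 for Agtr1a, 5.60 for Ednrb, 3.99 for Npr3, 2.63 for Adra1b, 2.57 for Adra1a and 1.93 for Edn1. Chrm2 was first and Ace second in every library, while the ranges of neighbours in this order overlapped throughout. The order differed by group, since Agtr1a averaged 4.96 TPM with LGK-974, below Ednrb at 7.09, and 10.5 TPM with DMSO, level with Ednra and above Ednrb at 4.10. The TPM of Adrb1 and Agtr1a leans on short transcripts. A form of Adrb1 that is annotated as non-coding and has 494 bases took 37.4 to 60.4% of Adrb1's TPM but only 43 to 82 estimated counts per library. In Agtr1a, the 2199-base Agtr1a-201 took 28.8 to 55.3% of the TPM and most of the counts. In counts of Agtr1a-201 alone, the levels were 2.62 to 4.67 CPM with LGK-974 and 6.39 to 14.2 CPM with DMSO, again without overlap.

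Ednrb was also read by transcript. Ednrb-201 and Ednrb-202 are both protein-coding and differ at the 5′ end, where Ednrb-201 starts at 103844402 and Ednrb-202 at 103843696. The RefSeq start behind the Ednrb window printed above lies a few bases from the start of Ednrb-202. Ednrb-202 was at 10.4, 11.4 and 14.7 CPM in LGK-974 replicates 1 to 3 and at 3.94, 8.18 and 2.31 CPM in DMSO replicates 1 to 3, while Ednrb-201 was at 10.2, 11.9 and 11.5 CPM and at 12.1, 9.79 and 15.2 CPM. The groups were apart in Ednrb-202, with means of 12.1 ± 2.22 CPM for LGK-974 and 4.81 ± 3.03 CPM for DMSO, and overlapped in Ednrb-201, with 11.2 ± 0.907 and 12.4 ± 2.73 CPM. Ednrb-202 held 45.9 to 56.7% of the gene's TPM with LGK-974 and 12.98, 19.4 and 45.3% with DMSO, so that DMSO replicate 2 came within 1 percentage point of the treated mice. These counts are Kallisto's division of reads that the transcripts largely share. Over the 9 genes with several transcripts, the TPM share of 3 of 24 transcripts did not overlap between the groups, beside 9.69% of all such transcripts. These were Ednrb-201, Ednrb-202 and Agtr1a-205. Shares within a gene are not independent, since a higher share of Ednrb-202 leaves a lower one for Ednrb-201. Adra1b-202 and Adra1b-204, whose estimated counts were identical, are both among the 24. Another form, Ednrb-203, held 23.1% of the TPM of Ednrb in DMSO replicate 1 and 0 to 10.1% in the other libraries, with overlap. The annotated protein-coding form of Chrm2 held 66.6 to 76.4% of the gene's TPM in the 6 libraries and Ednra-201 held 77.4 to 87.7% of Ednra's. Ace-201 held 51.9 to 63.9% and Ace-203, which starts farther downstream, 31.7 to 45.3%.

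**Figure D4:**
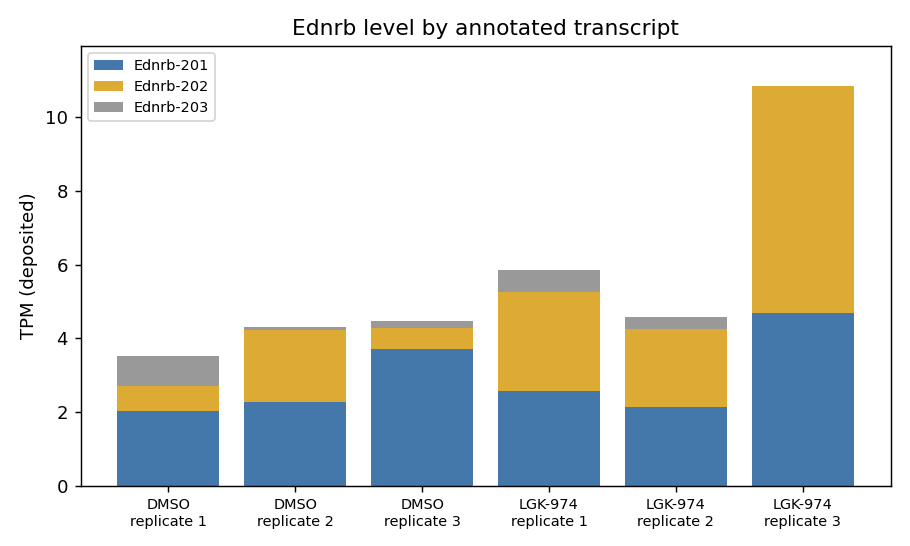
Deposited TPM of Ednrb in each library (vertical axis from 0), stacked by annotated transcript. Ednrb-202 makes up 45.9 to 56.7% of the bar in the LGK-974 libraries and 12.98 to 45.3% in the DMSO libraries.

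Other genes of the same pathways were read from lists chosen by known role, also with earlier results of these data known. Of 88 such genes beside the 10, 79 passed the filter on low counts, 0 had an adjusted p-value under 0.05 by edgeR, and 5 higher and 6 lower had an unadjusted one, which is 11 of 79 against 13.4% of all genes. DESeq2 called 1 of them, Nppa. Their median log2 fold change was −0.15, near that of all genes.

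Among the other adrenergic receptor genes, 0 had an unadjusted p-value under 0.05, and the smallest were those of Adra2b, Adrb3 and Adra2a, with log2 fold changes of −1.16, −1.17 and −0.53. All 3 were highest in DMSO replicate 1, and their log2 fold changes moved to −0.37, −0.23 and 0.69 without it. Of the genes of catecholamine synthesis and clearance, 0 of 8 tested had an unadjusted p-value under 0.05 either. Ddc, Th and Maoa, which encode enzymes that make or break down catecholamines, had log2 fold changes of −1.19, −2.38 and −0.69, and of −0.45, −1.11 and −0.21 without DMSO replicate 1, where each of them was highest. Of 26 genes that carry the adrenergic signal inside the cell, 15 lay above and 11 below 0, where 59.5% of all genes lay below 0. An unadjusted p-value under 0.05 in edgeR was reached by 2 on the higher and 2 on the lower side, against 6.26 and 7.18% of all genes. In TMM-scaled CPM the groups were apart in 3 higher and 1 lower, against 10.7 and 7.26% of all genes. Gnai3, a G protein subunit that inhibits adenylyl cyclase, averaged 30.9 ± 2.93 CPM in treated and 20.6 ± 2.60 CPM in control mice, a log2 fold change of 0.59 without overlap. Adcy6, a main adenylyl cyclase of the heart, was at 118 ± 33.4 and 208 ± 59.3 CPM, a log2 fold change of −0.82 without overlap. Arrb2, an arrestin that uncouples receptors, had a log2 fold change of 0.69, and Pde4d, a cyclic AMP phosphodiesterase, one of −0.59. The edgeR adjusted p-value was 0.367 for each of these 4 genes. Gnai3 overlapped in TPM, and Arrb2 in both TPM and CPM by library totals. Without DMSO replicate 3, Adcy6 was at −0.45 and Pde4d at −0.23, and Pde4d was at −0.39 without LGK-974 replicate 3.

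In the muscarinic list, 10 of the 11 tested genes, Chrm2 included, lay below 0, beside 59.5% of all genes. With the background of each library subtracted, Chrm1 and Ache moved above 0 (0.49 and 0.08), and Gnao1 moved below 0 (−0.08). Kcnj3, a subunit of the potassium channel that the M2 receptor opens, averaged 30.1 ± 16.1 CPM in treated and 56.2 ± 15.3 CPM in control mice, a log2 fold change of −0.90 with overlap. Rgs6, which ends the M2 signal, had a log2 fold change of −0.44, without overlap in TMM-scaled CPM but with overlap by library totals and in TPM. Chrm3, at 0.675 ± 0.355 and 2.08 ± 0.886 CPM, had one of −1.62 that was −1.20 without DMSO replicate 1. Per kb, Chrm3 was at 3.49, 3.57 and 12.2 times the level of the receptor families taken as background in LGK-974 replicates 1 to 3. In DMSO replicates 1 to 3 it was at 1.45, 2.28 and 15.1 times that level. Without DMSO replicate 3, Kcnj3 was at −0.54 and Rgs6 at −0.24, and Kcnj3 was at −1.37 without LGK-974 replicate 2.

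In the renin-angiotensin list, 14 of 18 tested genes lay below 0, beside 59.5% of all genes. The median of the list was −0.50 and −0.24 without DMSO replicate 1, where Agtr1b, Cma1 and Hsd11b2 moved above 0 (0.36, 0.33 and 0.31) and Ren1 from −1.52 to −0.23. Anpep, an aminopeptidase that trims angiotensin peptides and a surface protein of myeloid cells, averaged 42.0 ± 3.92 CPM in treated and 21.7 ± 7.65 CPM in control mice, a log2 fold change of 0.95. Mme, the gene of neprilysin, which degrades natriuretic peptides and angiotensin, was at 9.90 ± 3.25 and 16.8 ± 2.22 CPM, a log2 fold change of −0.76. Bdkrb2, the gene of the bradykinin B2 receptor, was low, at 1.72 ± 1.03 and 0.474 ± 0.261 CPM, with a log2 fold change of 1.85. The groups did not overlap in CPM in any of the 3, but Anpep and Mme overlapped in TPM, and the edgeR adjusted p-value was 0.367 for each. Per kb, Bdkrb2 was at 0.221, 0.78 and 1.04 times the level of the receptor families taken as background in DMSO replicates 1 to 3, so its control level did not exceed that background clearly. Mme was at −0.48 without LGK-974 replicate 3. For Anpep, DESeq2 without DMSO replicate 1 gave 0.0174, the lowest of a range up to 0.772. Agt, Ren1 and Agtr2, the genes of angiotensinogen, renin and the type 2 receptor, were at no more than 2.94, 2.21 and 1.84 CPM in any library.

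In the endothelin list, Ece1, the gene of the protease that releases endothelin-1, averaged 96.1 ± 6.29 CPM in treated and 89.2 ± 18.8 CPM in control mice, a log2 fold change of 0.11. It was 0.0041 without DMSO replicate 1. Edn3 and Ece2 had log2 fold changes of −0.64 and −0.0029, which were 0.04 and 0.02 without that library. Edn2 did not pass the filter, with 0 to 9 counts per library.

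Nppa, the gene of atrial natriuretic peptide, which ventricular cardiomyocytes use again under stress, had the smallest p-value of the natriuretic list. It was at 1454, 1263 and 1126 CPM in LGK-974 replicates 1 to 3 and at 459, 723 and 691 CPM in DMSO replicates 1 to 3. The groups did not overlap, and the log2 fold change was 1.04 (SE 0.264, edgeR adjusted p = 0.367), where DESeq2 gave 0.00194 and the alternatives 3.15e-04 to 0.772. Nppb, of the related B-type peptide, was at 60.0 ± 3.10 and 41.1 ± 14.4 CPM with overlap, a log2 fold change of 0.55. It was 0.36 without DMSO replicate 1 and 0.84 without DMSO replicate 2, and the edgeR adjusted p-value was 0.368. Pde2a, a phosphodiesterase for cyclic GMP and cyclic AMP, had a log2 fold change of −0.82 with overlap and of −0.45 without DMSO replicate 3, and DESeq2 without DMSO replicate 1 gave it an adjusted p-value of 5.32e-05, the lowest of a range up to 0.772.

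**Figure D5:**
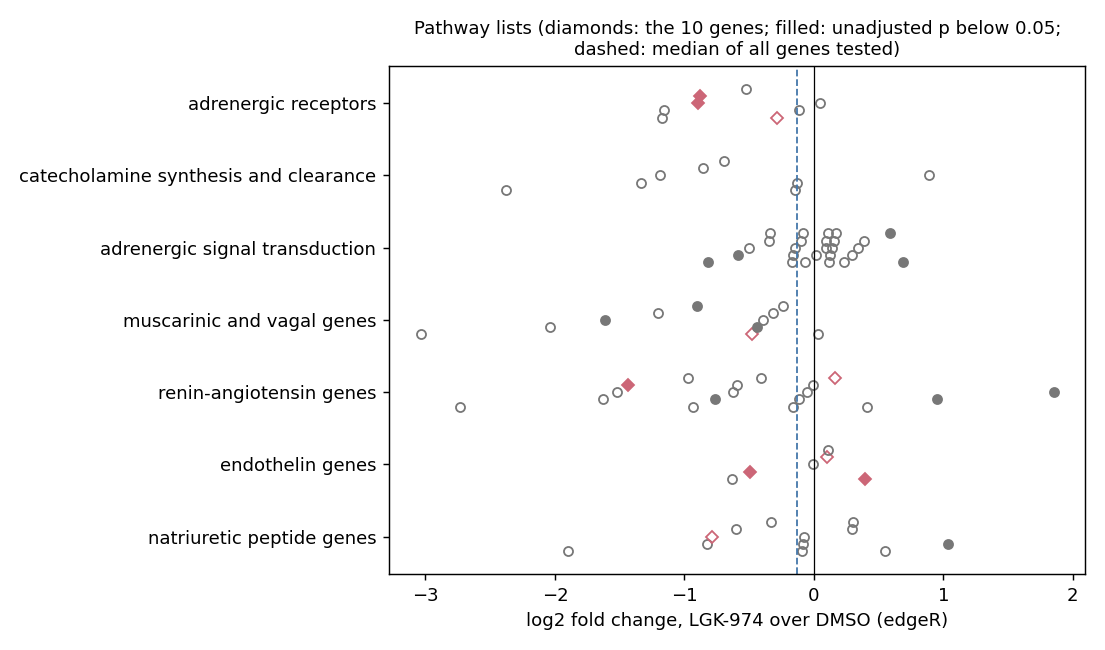
Log2 fold change of LGK-974 over DMSO (edgeR) of each tested gene of the 7 pathway lists, with diamonds for the 10 genes described first, filled symbols for an unadjusted p-value under 0.05 and a dashed line at the median of all genes, −0.13. Agtr1a lies at −1.43 in the renin-angiotensin row, where Bdkrb2 lies at 1.85.

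The genes whose levels followed each of the 10 most closely were found by Pearson's r of log2 CPM over the 6 libraries, among 10643 protein-coding genes with a mean of at least 5 CPM. With 6 libraries and so many genes, r was 0.975 to 0.998 for the nearest genes, and is given as a description. Those nearest to Agtr1a were Mrpl45 and Hand2, to Ednra Slc25a34 and Adam11, to Adra1a Glcci1 and Jmjd4, and to Chrm2 Anapc4 and Gata6. Those nearest to Ednrb were Slfn5 (117.9, 131 and 141 CPM with LGK-974 and 88.6, 87.4 and 88.5 CPM with DMSO) and Ifi203, both known as interferon-inducible genes. The nearest were Scaf8 and Rabep2 for Adrb1, Dip2c and Dmac2 for Adra1b, Rarres2 and Plscr1 for Ace, Sept10 and Med21 for Edn1, and Abcg2 and Cpm for Npr3.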

How the data were processed

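The authors depleted ribosomal RNA, made libraries with the TrueSeq RNA Access kit and quantified transcripts with Kallisto (version not given in the sources used here) on an Ensembl GRCm38 index. The deposited tables list 118489 transcripts per library, each with Kallisto's estimated count. They also hold deposited TPM values, which account for effective transcript length and library size.

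Of the transcripts, 98.5% (116728) were joined to 35968 genes of GENCODE M21 (GRCm38), whose rounded sums of estimated counts were used. A gene entered the test when 3 or more libraries held 10 or more counts. The test was the quasi-likelihood test of edgeR 4.0.16 (R 4.3.3) on treatment alone, with TMM factors and a Benjamini-Hochberg threshold of 0.05. The SE given with an edgeR log2 fold change was derived from this test. It is the absolute log2 fold change divided by the square root of the F statistic. DESeq2 1.42.0, the program of the study, and limma-voom 3.58.1 were alternatives. Depth was 41579787 to 80398211 estimated counts with 3 mice per group, and what limited precision was not tested. The common dispersion of edgeR, a measure of the spread of counts between mice of a group, was 0.238. It was 0.0824 without DMSO replicate 1. Of the 10 genes, 10 passed the filter. Exons of Chrm2, Ace, Edn1, Ednra and Npr3 overlap a gene on the other strand over 35 to 321 bases, and whether strand was used was not stated. Scripts were tested on simulated data with 20076 genes, 100 of them shifted by 2 on the log2 scale and 100 by 1. At a shift of 2, edgeR recovered 71%, DESeq2 84% and limma-voom with quality weights 68%. At a shift of 1, they recovered 5, 21 and 6%. False calls made up 11 of 87 calls with edgeR, 68 of 173 with DESeq2 and 6 of 80 with limma-voom. In the simulation all libraries had the same dispersion for a gene, and none had a raised background like that of DMSO replicate 1. These rates may therefore not hold for the real libraries. Figures were made with matplotlib 3.10.9.

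Named genes were the 10, the genes of each pathway list with an unadjusted p-value under 0.05 or, where fewer than 3 reached that, the 3 smallest, the 2 nearest genes in pattern, and transcripts with at least 20% of a gene's TPM in 1 library. Agt, Ren1, Agtr2, Agtr1b, Edn2, Cma1, Hsd11b2, Chrm1, Ache, Gnao1, Actc1 and the ratios of counts were chosen after their values were seen. The 10 genes and all lists were chosen with earlier results of these data known. Alternatives concerned normalization, filter, test, block, mitochondrial genes, TPM-scaled counts, gene type and left-out mice, and after the values were seen background subtraction, library totals and DESeq2 without DMSO replicate 1.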

Additional observations from a re-analysis of the deposited data

How the results depend on the processing

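The log2 fold changes of the 10 genes were recomputed under 17 alternatives, 170 values in all. In 162 they kept their sign and their side of an adjusted p-value of 0.05, in 7 they kept their sign and passed it, and in 1, Edn1 without DMSO replicate 2, the sign turned to −0.0034, within a range of −0.0034 to 0.29 with 1 mouse left out. Those that passed were Agtr1a without a filter on low counts (−1.32), with DESeq2 (−1.42), with limma-voom (−1.43) and with DESeq2 without DMSO replicate 1 (−1.65), Adra1a with DESeq2 (−0.85) and with DESeq2 without DMSO replicate 1 (−0.73), and Adra1b with the latter (−1.17). The number of genes with an adjusted p-value under 0.05, which was 0 (2698 at an unadjusted one), was 1210 without a filter, 337 with DESeq2, 45 with limma-voom, 375 with DESeq2 without DMSO replicate 1 and 0 to 2 with 1 mouse left out. The number at an unadjusted p-value was 4778 without a filter, 4155 with limma-voom and 821 (without LGK-974 replicate 3) to 4624 (without DMSO replicate 3) with 1 mouse left out. The median of the 10 genes ranged from −0.62 to −0.24 with 1 mouse left out, and was −0.24 without DMSO replicate 3. The cause of these shifts was not tested.

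Replicate numbers occur in both groups, but the mice are different animals. Their deviations from the group means correlated at 0.476, −0.0469 and 0.408 for numbers 1, 2 and 3, and LGK-974 replicate 2 correlated best with DMSO replicate 3. Adding the replicate number as a block to the model, 0 genes passed the adjusted threshold, 3314 the unadjusted one, and the median of the 10 genes was −0.48. The lowest counts were 151 for Edn1 in DMSO replicate 1, 186 for Agtr1a in LGK-974 replicate 3 and 212 for Adra1b in DMSO replicate 1. With the background of each library subtracted, these 3 genes had log2 fold changes of 0.24, −1.50 and −0.88.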
